A study of Mus musculus with 10 samples.

Results

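Fibroblast growth factors (FGFs) of the developing molar were examined in cultured mouse tooth germs treated with insulin-like growth factor 1 (IGF1). The set was given by name and comprised 9 secreted FGF ligands of the enamel knot and dental mesenchyme, namely Fgf3, Fgf4, Fgf7, Fgf8, Fgf9, Fgf10, Fgf15, Fgf18 and Fgf20. All 9 symbols were found in the GENCODE mouse release M21 annotation (GRCm38) and had a line in the deposited table of 18381 genes. Of these, 7 passed the expression filter and were tested among 14504 genes, whereas Fgf8 and Fgf15 were too low to test.

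The samples were first lower molars of wild type C57BL/6JOlaHsd mouse embryos at embryonic day 14 (E14), kept for 6 h in hanging drops of medium. Each of 5 embryos, numbered 1, 2, 3, 4 and 6, gave one molar to medium with mouse recombinant IGF1 at 750 ng per ml and the other molar to medium with the same volume of vehicle (1x PBS + 0.1% BSA), with left and right sides balanced. Each library was made from a single whole tooth germ, so epithelium and mesenchyme were measured together, and in such bulk samples fewer cells of a type and less RNA per cell cannot be told apart. Total counts ranged from 2845773 to 8403151 in the controls and from 3456634 to 8763113 with IGF1, and both teeth of embryo 1 had the lowest totals of their group. All 18 epithelial markers and all 17 dental mesenchymal markers examined were present in the table. Embryo 6 differed from the rest of its group for several FGF genes, most of all in its IGF1 tooth, and results that rest on it are given with and without embryo 6.

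FGFs are secreted signals that bind heparan sulphate chains and receptor tyrosine kinases, and the receptors pass the signal on through the RAS and MAP kinase relay. Around the cap stage of the molar, Fgf3, Fgf4, Fgf9, Fgf15 and Fgf20 are known from the enamel knot, a signalling centre in the epithelium, while Fgf3, Fgf7, Fgf10 and Fgf18 are known from the mesenchyme. Fgf8 is best known from the oral epithelium before the tooth bud forms. IGF1 signals through a receptor tyrosine kinase of its own, and the comparison asks which FGF transcripts differ between the IGF1 and control molar of the same embryo.

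The promoter sequences of 3 ligands are shown for the place of these ligands in the results below. No result below rests on the sequences. Fgf3 passed the test, Fgf4 lies next to it, and Fgf10 had the highest mean level per length in the controls. Each is the 250 bases before the RefSeq transcription start (GRCm38.p6), written 5′ to 3′ on the plus strand, on which all 3 genes lie. Capitals mark matches on either strand to CTTTGA or CTTTGT (letters bound by TCF/LEF factors), GTAAACA (FoxO factors), ACGTG (the core of the hypoxia response element) or GGGCGG (the GC box).
Fgf3, chr7:144838362-144838611: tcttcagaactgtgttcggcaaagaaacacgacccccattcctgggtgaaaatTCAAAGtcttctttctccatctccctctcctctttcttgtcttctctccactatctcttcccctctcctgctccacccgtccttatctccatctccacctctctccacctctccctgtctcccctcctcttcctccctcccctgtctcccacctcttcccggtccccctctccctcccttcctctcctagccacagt
Fgf4, chr7:144861136-144861385: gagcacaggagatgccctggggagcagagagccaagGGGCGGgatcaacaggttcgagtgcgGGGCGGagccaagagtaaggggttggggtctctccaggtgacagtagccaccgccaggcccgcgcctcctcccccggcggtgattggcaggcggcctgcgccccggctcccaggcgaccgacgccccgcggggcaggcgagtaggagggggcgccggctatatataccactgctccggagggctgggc
Fgf10, chr13:118714449-118714698: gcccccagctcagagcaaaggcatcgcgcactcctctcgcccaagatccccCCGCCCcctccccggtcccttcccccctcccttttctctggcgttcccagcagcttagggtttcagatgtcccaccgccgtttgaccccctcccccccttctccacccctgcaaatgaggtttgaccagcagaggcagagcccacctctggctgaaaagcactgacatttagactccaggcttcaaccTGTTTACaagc
The Fgf3 window held 1 TCF/LEF match, on the minus strand and 197 bases before the start. The Fgf4 window held 2 GC boxes, at 214 and 188 bases, and the Fgf10 window held a FoxO match at 11 bases and a GC box at 199 bases before the start. Among 32851 mouse promoters of the same length, 27.6% held a TCF/LEF match, 3.17% a FoxO match, 16.6% a hypoxia response match and 32.7% a GC box, so each of these matches is a description of the letters only. In the GENCODE annotation, longer transcripts of Fgf3, Fgf4 and Fgf10 begin further upstream, which places most of each window in an intron of those transcripts. Promoters of 6 of the 9 ligands were matched, and those of Fgf8, Fgf15 and Fgf20 were not.

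Fgf3 was lower in the IGF1 molar of all 5 embryos and was the only ligand of the 7 tested that passed the test (edgeR quasi-likelihood test, adjusted p under 0.05). Hence 1 ligand was lower and 0 were higher, whereas 4.76% of all genes tested were lower, 6.72% were higher and 11.5% passed in either direction. At an unadjusted p under 0.05, 5 ligands were lower and 0 higher. With embryo 1, 2, 3, 4 or 6 left out, that count lower was 4, 2, 3, 2 and 3. The shares over all genes are at the adjusted threshold. They are therefore no measure for this or any later count at an unadjusted p. DESeq2 and limma-voom each placed 1 ligand lower and 0 higher after adjustment. The fitted change of IGF1 over control was below 0 for all 7 ligands tested. Its median was -0.75 on the log2 scale, compared with -0.00 over all genes tested. Embryo by embryo, the median over the 7 ligands was -0.23, -1.17, -0.88, -0.57 and -0.22 in embryos 1, 2, 3, 4 and 6. The median was thus below 0 in each embryo and closest to 0 in embryos 1 and 6.

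**Figure D1:**
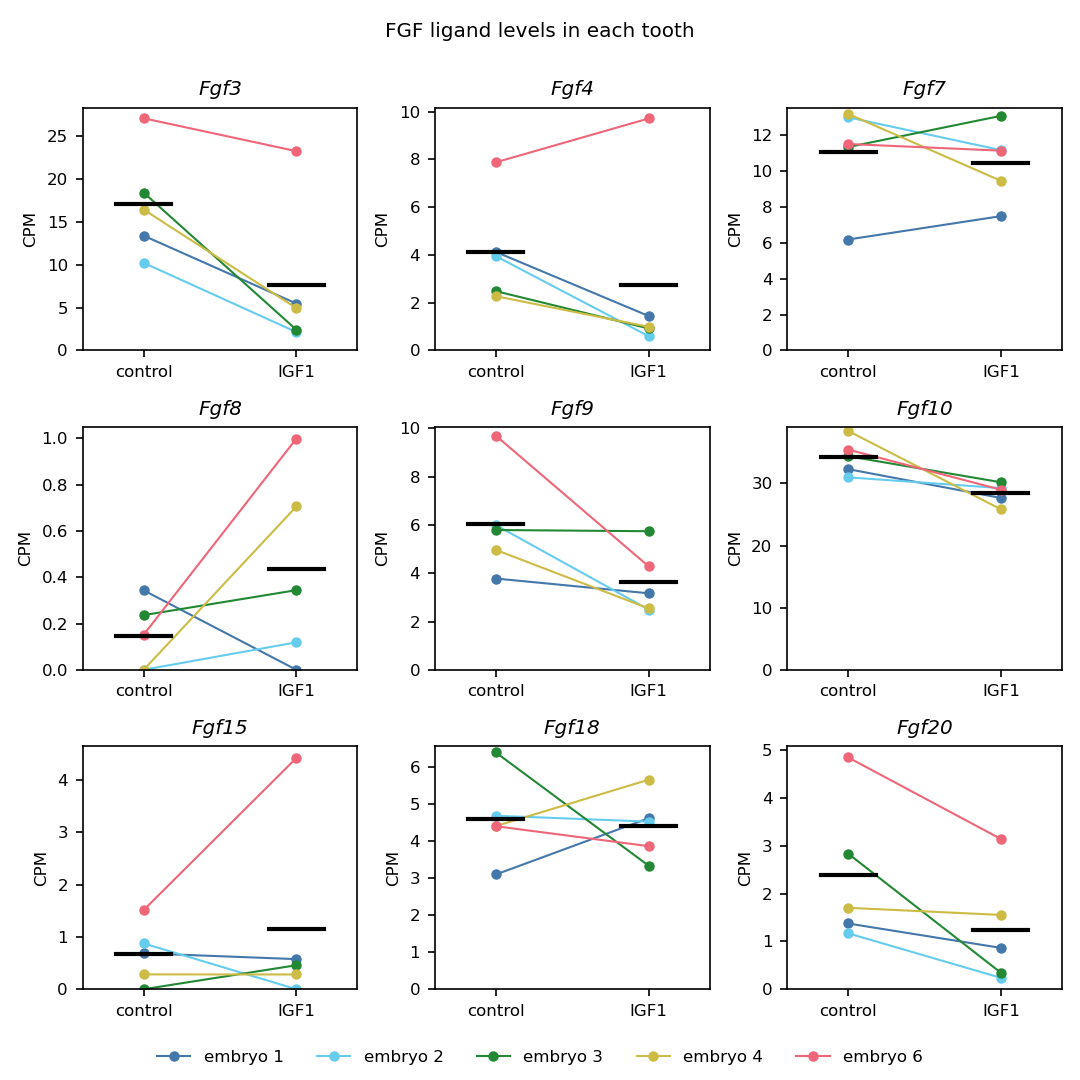
Level of each FGF ligand in counts-per-million (CPM) in the control and IGF1 molar of each embryo, with a line joining the 2 teeth of an embryo, a black bar at the group mean (n = 5) and a separate vertical scale from 0 for each gene. Fgf3 is lower with IGF1 along all 5 lines, and the IGF1 tooth of embryo 6 sits highest in its group for Fgf3, Fgf4, Fgf8, Fgf15 and Fgf20.

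Fgf3 (ENSMUSG00000031074, chromosome 7, 144838083 to 144844436) is a ligand of both the enamel knot and the dental mesenchyme. Its level, in counts-per-million (CPM) on library sizes scaled with trimmed mean of M values (TMM), was 13.4, 10.2, 18.4, 16.5 and 27.1 in the control teeth of embryos 1, 2, 3, 4 and 6. In the IGF1 teeth of the same embryos, Fgf3 stood at 5.47, 2.14, 2.41, 4.94 and 23.3 CPM. The group means were 17.1 ± 6.39 and 7.65 ± 8.86 CPM (SD, n = 5). In 4 embryos the IGF1 tooth was below every control tooth, and the groups overlapped through embryo 6 alone, whose teeth were the highest of their groups. The log2 changes within embryos were -1.25, -2.11, -2.79, -1.68 and -0.22, from the largest in embryo 3 to the smallest in embryo 6. The fitted log2 change was -1.55 (SE 0.32, 95% interval -2.26 to -0.84, adjusted p = 0.0116 by edgeR), which is 2.93-fold lower with IGF1. Fgf3 passed the test when any 1 embryo was left out, with a log2 change of -2.08 (adjusted p = 0.00176) without embryo 6. It did not pass when the pairing of teeth by embryo was ignored (-1.18, adjusted p = 0.237 by edgeR). An unpaired fit without embryo 6 was added after seeing the data and passed (-2.06, adjusted p = 0.00388 by edgeR). Embryo 6 had the smallest change of Fgf3, so that pass is no independent evidence.

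Fgf4 (ENSMUSG00000050917, chromosome 7, 144847367 to 144865243), the ligand most restricted to the enamel knot, was low in most teeth. Its control levels were 4.12, 3.95, 2.48, 2.27 and 7.88 CPM in embryos 1, 2, 3, 4 and 6. The IGF1 levels in the same order were 1.44, 0.594, 0.918, 0.988 and 9.71 CPM. In embryos 1 to 4 every IGF1 tooth was below every control tooth, while in embryo 6 the IGF1 tooth was the highest of all 10. The log2 change was -1.06 (SE 0.40, 95% interval -1.95 to -0.17, adjusted p = 0.119) with all embryos, and -1.71 (adjusted p = 0.0317) without embryo 6. The call for Fgf4 therefore depended on 1 embryo.

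Fgf20 (ENSMUSG00000031603, chromosome 8, 40279166 to 40308331), an enamel knot ligand, had only 121 counts over all 10 libraries. The control teeth held 1.37, 1.17, 2.84, 1.70 and 4.85 CPM, and the IGF1 teeth 0.864, 0.238, 0.344, 1.55 and 3.14 CPM, in embryos 1, 2, 3, 4 and 6. It was lower with IGF1 in 5 of 5 embryos, most in embryos 2 and 3, but the groups overlapped. The counts were 4, 8, 24, 12 and 32 in the control and 3, 2, 3, 11 and 22 in the IGF1 teeth. The teeth of embryos 1 and 4 were thus almost equal in counts. The log2 change was -1.15 (SE 0.44, 95% interval -2.11 to -0.18, adjusted p = 0.120).

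Fgf9 (ENSMUSG00000021974, chromosome 14, 58070547 to 58112720), an epithelial ligand that signals to the mesenchyme, was at 3.78, 5.99, 5.79, 4.96 and 9.69 CPM in the control teeth. With IGF1 it was at 3.17, 2.50, 5.74, 2.54 and 4.28 CPM in embryos 1, 2, 3, 4 and 6. All 5 embryos were lower with IGF1, yet in embryo 3 the teeth were almost equal and the groups overlapped. The log2 change of -0.75 (SE 0.25, 95% interval -1.31 to -0.19) missed the threshold at an adjusted p of 0.0824, and passed it without embryo 3 (-0.99, adjusted p = 0.0407). It did not pass without embryo 6 (-0.62, adjusted p = 0.267 by edgeR). Nor did it pass without embryo 1, 2 or 4 (adjusted p = 0.101, 0.215 and 0.194) or without the pairing (adjusted p = 0.186).

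Fgf15 (ENSMUSG00000031073, chromosome 7, 144896531 to 144900953), the mouse counterpart of human FGF19, was too low to test. The control teeth held 2, 6, 0, 2 and 10 counts and the IGF1 teeth 2, 0, 4, 2 and 31 counts in embryos 1, 2, 3, 4 and 6. The IGF1 tooth of embryo 6 held more counts than the other IGF1 teeth together (exact 95% Poisson interval 21.1 to 44, for counting error only). A count of 0 in the control tooth of embryo 3 allows up to 0.354 CPM at the one-sided floor of 3 counts. In a fit without the expression filter, the log2 change was 0.35 (SE 0.91, adjusted p = 0.884).

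Fgf10 (ENSMUSG00000021732, chromosome 13, 118669791 to 118792115), the main mesenchymal ligand of the receptor Fgfr2, was the most even of the set. Control levels were 32.3, 31.0, 34.4, 38.4 and 35.4 CPM, and IGF1 levels were 27.7, 29.2, 30.2, 25.8 and 29.0 CPM, in embryos 1, 2, 3, 4 and 6. Every IGF1 tooth lay below every control tooth, although the distance between the groups was small. The log2 change of -0.27 (SE 0.10, 95% interval -0.49 to -0.06) corresponded to 1.21-fold lower and did not pass after adjustment over all genes (adjusted p = 0.0970).

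Fgf7 (ENSMUSG00000027208, chromosome 2, 126034658 to 126091185), a mesenchymal ligand of the same receptor, averaged 11.04 ± 2.84 CPM in the controls and 10.5 ± 2.10 CPM with IGF1 (SD, n = 5). Its log2 change of -0.08 (SE 0.15, adjusted p = 0.784) had a 95% interval of -0.42 to 0.26. Fgf18 (ENSMUSG00000057967, chromosome 11, 33117430 to 33147400), another mesenchymal ligand, averaged 4.59 ± 1.18 and 4.39 ± 0.874 CPM, with a log2 change of -0.10 (SE 0.25, adjusted p = 0.844) and an interval of -0.66 to 0.46. Both were lower in 3 embryos and higher in 2, and the intervals allow a change in either direction.

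Fgf8 (ENSMUSG00000025219, chromosome 19, 45736798 to 45742915) was near the limit of detection. The control teeth held 1, 0, 2, 0 and 1 counts and the IGF1 teeth 0, 1, 3, 5 and 7 counts in embryos 1, 2, 3, 4 and 6. Without the expression filter, the log2 change was 1.66 (SE 1.08, adjusted p = 0.429), so no difference was detectable at this depth.

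**Figure D2:**
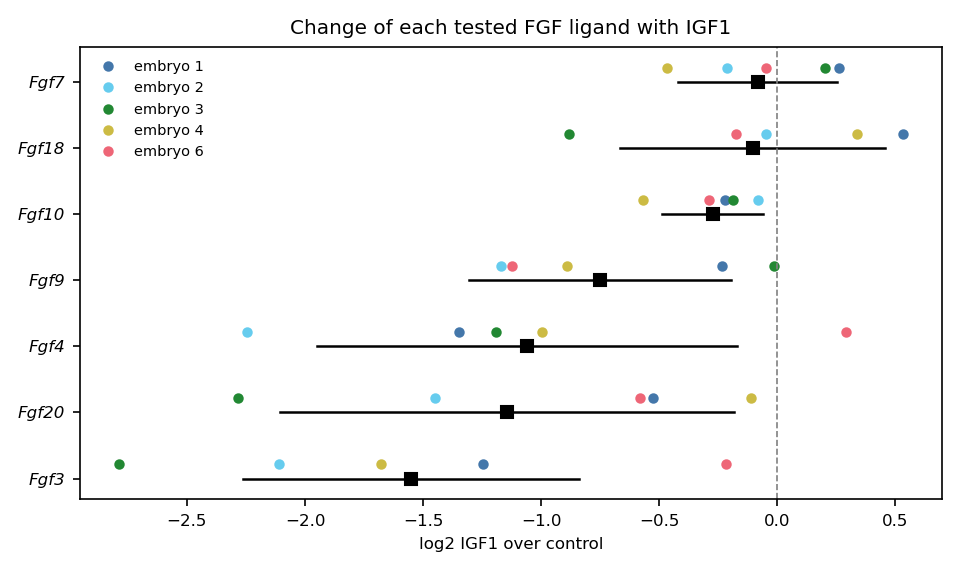
Log2 change of IGF1 over control for the 7 FGF ligands tested, with coloured points for single embryos, black squares for the fitted change and black lines for its 95% interval (unadjusted). Fitted changes run from -0.08 for Fgf7 to -1.55 for Fgf3, and embryo 6 lies to the right of the other embryos for Fgf3 and Fgf4.

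Levels were next compared between ligands as CPM per kb of annotated exon, since longer transcripts give more reads. In the control teeth, Fgf10 at 7.46 ± 0.630 CPM per kb and Fgf3 at 7.36 ± 2.75 CPM per kb (SD, n = 5) were the highest and did not differ beyond their spread. Fgf18 and Fgf7 followed at 3.86 ± 0.9904 and 3.4 ± 0.876 CPM per kb, with overlapping ranges. Fgf20, Fgf9 and Fgf4 formed a lower set at 1.42 ± 0.905, 1.30 ± 0.477 and 1.30 ± 0.704 CPM per kb, and their order lies within the spread between embryos. Fgf15 and Fgf8 were lowest at 0.220 ± 0.190 and 0.108 ± 0.111 CPM per kb, and no control tooth reached for Fgf15 the lowest control level of Fgf4. With IGF1, Fgf10 remained the highest at 6.17 ± 0.367 CPM per kb. Fgf3 averaged 3.29 ± 3.81 CPM per kb, between Fgf18 at 3.70 and Fgf7 at 3.22 CPM per kb, yet it ranged from 0.920 to 10 CPM per kb. Using the longest transcript as length exchanged the places of Fgf20 and Fgf9 in the controls and placed Fgf7 above Fgf3 with IGF1.

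**Figure D3:**
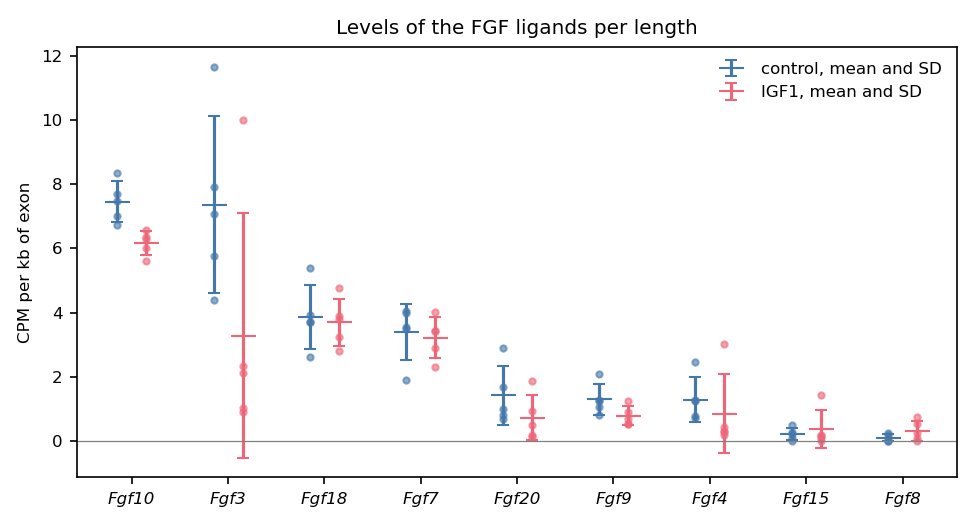
Level of each FGF ligand in CPM per kb of annotated exon, ordered by the control mean, with points for single teeth and a cross bar and whiskers for the mean and SD (n = 5 for each group). Fgf10 and Fgf3 lead in the control teeth, and the IGF1 mean of Fgf3 (3.29) is drawn up by the single tooth of embryo 6 at 10.

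Fgf3, Fgf4 and Fgf15 are close neighbours on chromosome 7. Fgf4 starts 9284 bases and Fgf15 58448 bases from the start of Fgf3 (start being the lower coordinate in the annotation). Within 500 kb on either side, Fgf3 had 12 protein coding neighbours, of which 9 were tested and 0 passed the test, compared with 11.5% of all genes tested. Apart from Fgf4, the changes of the tested neighbours were between -0.25 and 0.43 on the log2 scale. Around Fgf7, Fgf8, Fgf9, Fgf10, Fgf18 and Fgf20, 5 of 39 tested neighbours passed (12.8%), a share near the 11.5% over all genes, so these calls are given as values of single genes. Gabrp, a GABA receptor subunit gene 433351 bases from Fgf18, fell by 1.04 on the log2 scale (SE 0.28, adjusted p = 0.0377). Zdhhc2, encoding a palmitoyltransferase, and Mtmr7, encoding a myotubularin related protein, rose by 0.55 (SE 0.13, adjusted p = 0.0223) and 0.48 (SE 0.13, adjusted p = 0.0386) near Fgf20. Nolc1, a nucleolar gene, and Gbf1, a regulator of Golgi transport, rose by 0.28 (SE 0.07, adjusted p = 0.0297) and 0.45 (SE 0.08, adjusted p = 0.00628) near Fgf8. Of these, Gbf1 passed in each alternative fit, and each of the other 4 lost its call in some of them.

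**Figure D4:**
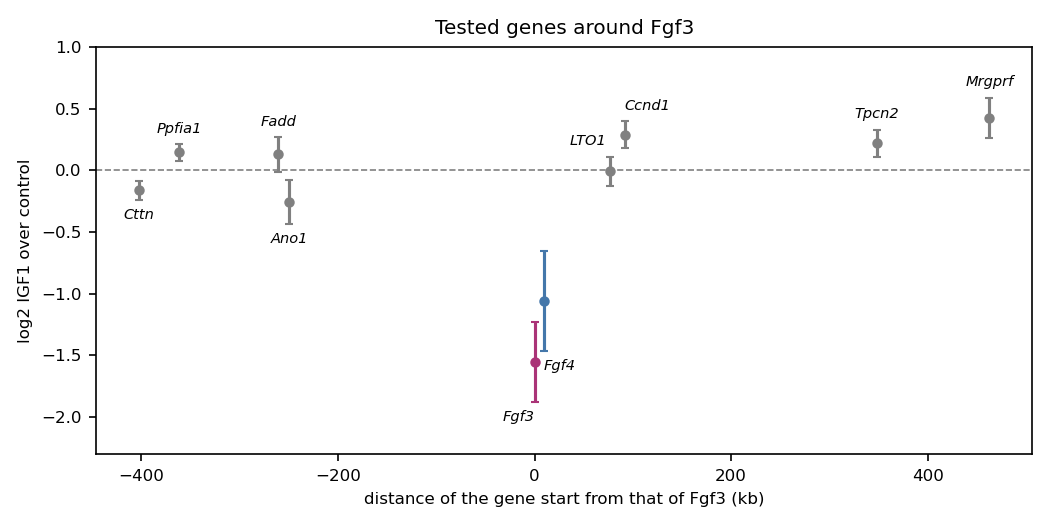
Log2 change of IGF1 over control for Fgf3 and the 9 tested protein coding genes within 500 kb of it, against the distance between gene starts in kb (whiskers, SE). Fgf3 and Fgf4 lie well below 0 (-1.55 and -1.06), and the remaining genes lie between -0.25 and 0.43.

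For ligands averaging at least 50 counts per library, the tested genes with the most similar profile over the 10 samples were listed by Pearson correlation of log2 CPM. These values describe teeth that share embryos and treatment. Each is among the highest over all genes tested, and such a choice over 10 samples gives high values by itself. Fgf3 was most like Mycn (r = 0.974), encoding a MYC family transcription factor, Enc1 (r = 0.949) and Penk (r = 0.946), encoding proenkephalin. Fgf7 was most like Zfp281 (r = 0.958), Trip12 (r = 0.955) and Zfp711 (r = 0.955). In both groups Fgf7 was lowest in embryo 1 (6.18 CPM in the control and 7.49 CPM in the IGF1 tooth), and the part of that embryo in these values was not tested. Fgf10 was most like Bcl6 (r = 0.95), encoding a transcriptional repressor, P3h2 (r = 0.947) and Chd6 (r = 0.944).

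All lists here and below were chosen with earlier results of these data known. Their counts beside the shares over all genes are therefore descriptions only. The remaining genes of the pathway were described by lists of 66 genes in 5 roles. Of the 55 that were tested, 13 passed, 5 higher and 8 lower with IGF1, beside 11.5% of all genes in either direction, 6.72% higher and 4.76% lower. Of the 8 lower genes, 6 were targets and feedback genes. Among the other FGF family genes, 6 of 13 were tested, with a median log2 change of 0.21. Fgf11, an FGF that stays inside the cell, rose from 10.9 ± 2.88 to 25.8 ± 15.0 CPM (log2 change 1.17, SE 0.31, adjusted p = 0.0348), and was higher in 5 of 5 embryos. Its change was largest in embryos 2 and 3 (2.32 and 2.05), and the call was lost in DESeq2 and when embryo 2, 3 or 4 was left out. Fgf5, Fgf6, Fgf22 and Fgf23 had no line in the table.

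The receptors had a median log2 change of 0.03 over the 4 tested. Fgfr1 fell slightly from 455 ± 55.7 to 372 ± 26.8 CPM (log2 change -0.29, SE 0.07, adjusted p = 0.0301) and was lower in 5 of 5 embryos. This call was lost when embryo 1, 3, 4 or 6 was left out and without the pairing (adjusted p up to 0.153). Fgfr2, the epithelial receptor for Fgf3, Fgf7 and Fgf10 in its IIIb form, averaged 245 ± 39.0 and 261 ± 19.4 CPM (log2 change 0.11, SE 0.09, adjusted p = 0.493, 95% interval -0.09 to 0.30).

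Genes for binding and release of FGFs had 15 tested, with a median log2 change of 0.06, 3 higher and 0 lower, beside 6.72% higher and 4.76% lower over all genes. At an unadjusted p under 0.05, 5 were higher and 1 lower, and DESeq2 and limma-voom each gave 3 higher and 0 lower. Without the pairing 1 was higher, beside 556 of all 14504 genes tested. Fgfbp1, a carrier that frees FGFs from the matrix, rose from 7.92 ± 1.30 to 17.9 ± 2.45 CPM (log2 change 1.16, SE 0.14, adjusted p = 0.000608). The IGF1 teeth, at 15.1 to 21.3 CPM, all lay above the control teeth, at 6.66 to 10.1 CPM, and the call was kept in each alternative fit. Gpc1, a heparan sulphate proteoglycan, and Sulf2, a heparan 6-O-endosulphatase, rose by 0.35 (SE 0.08, adjusted p = 0.0228) and 0.30 (SE 0.08, adjusted p = 0.0272). Both calls were lost in several alternatives. In the signal relay, 1 of 17 tested genes was higher and 1 lower, a share near the 11.5% of all genes that passed in either direction, and the median was 0.02. Gab1, an adaptor for receptor tyrosine kinases, fell by 0.36 (SE 0.06, adjusted p = 0.00446) and Map2k1, encoding the kinase MEK1, rose by 0.70 (SE 0.15, adjusted p = 0.0118).

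Targets and feedback genes of FGF signalling were lower more often than higher. Of the 13 tested, 6 were lower and 0 higher, beside 4.76% lower and 6.72% higher over all genes, and the median log2 change was -0.23. This list too was chosen with earlier results of these data known, so the count is a description only. The count was 6 lower and 0 higher with DESeq2 and limma-voom as well. It was 5 lower without embryo 6, beside 399 of all 14579 genes tested, and 4 lower without the pairing, beside 331 of 14504. At an unadjusted p under 0.05, 8 were lower and 1 higher. Dusp6, a phosphatase acting on ERK, had control levels of 165, 163, 174, 198 and 262 CPM and IGF1 levels of 112, 94.3, 116, 116 and 192 CPM in embryos 1, 2, 3, 4 and 6. It fell by 0.63 on the log2 scale (SE 0.07, adjusted p = 0.00042), a call lost in the fit without the pairing (adjusted p = 0.0679), and embryo 6 was again highest in both groups. Of the Sprouty feedback inhibitors, Spry2 fell by 0.90 (SE 0.12, adjusted p = 0.000846), with 32.7 to 46.2 CPM in the control and 17.9 to 29.8 CPM in the IGF1 teeth, and Spry1 fell by 0.66 (SE 0.09, adjusted p = 0.0014). Il17rd, encoding the FGF antagonist Sef, fell by 0.55 (SE 0.09, adjusted p = 0.00371). Spry4 and the transcription factor gene Etv1 were the other calls, whereas Etv4 (-0.11, adjusted p = 0.588) and Etv5 (-0.23, adjusted p = 0.172) did not pass. These genes also respond to other receptor tyrosine kinases.

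**Figure D5:**
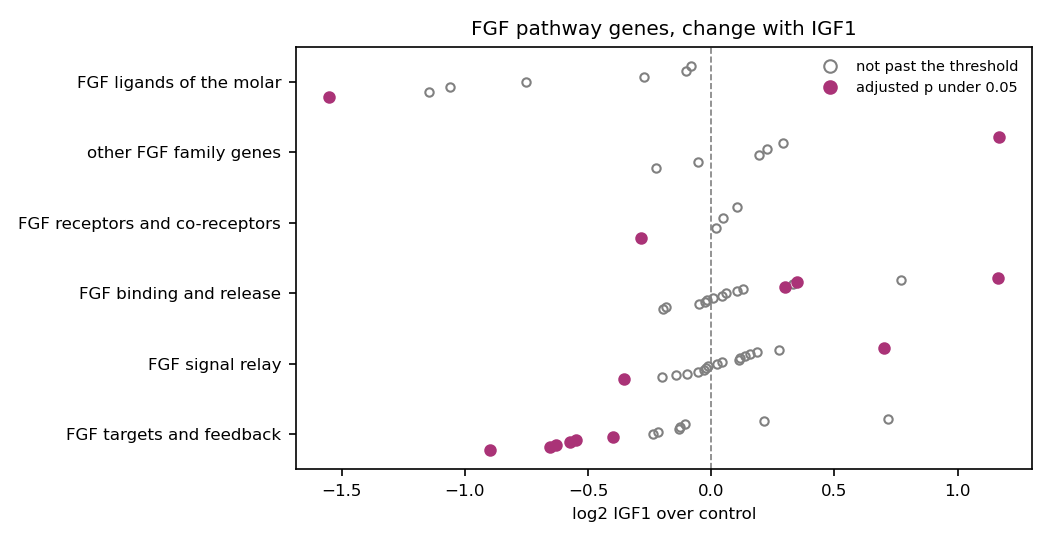
Log2 change of IGF1 over control for the tested genes of 6 FGF lists, 1 point per gene, filled where the adjusted p was under 0.05. Filled points number 1 of 7 for the molar ligands and 6 of 13 for targets and feedback, all of them below 0.

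Markers of the cells that make these ligands were set beside the changes. Of 12 enamel knot markers, 2 were lower and 1 higher, beside 4.76% lower and 6.72% higher over all genes, and their median was -0.20. By an unadjusted p under 0.05, 5 of them were lower and 1 higher. Without embryo 6, 2 were lower and 0 higher, beside 399 lower and 595 higher of all 14579 genes tested. The count was 1 lower and 1 higher in DESeq2 and without the pairing, and 3 lower and 1 higher in limma-voom. Shh, the hedgehog ligand of the enamel knot, fell by 1.31 (SE 0.16, adjusted p = 0.000645), Bmp2 fell by 0.56 (SE 0.15, adjusted p = 0.0367), and Slit1, an axon guidance gene, rose by 0.94 (SE 0.23, adjusted p = 0.0228). Shh passed in each alternative fit, whereas Bmp2 and Slit1 lost their calls in some. The summed level of the 12 markers was 138 to 198 CPM in the control and 119 to 179 CPM in the IGF1 teeth. Epithelial markers summed to 3709 to 5377 and 4139 to 5529 CPM, with 1 of 18 higher and 0 lower, beside 6.72% and 4.76% over all genes, and a median of 0.08. At an unadjusted p under 0.05, 5 were higher and 1 lower, and the count higher was 2 with DESeq2, 3 with limma-voom and 0 without embryo 6 or without the pairing. The called gene, the basal keratin Krt5, rose by 0.43 (SE 0.09, adjusted p = 0.0126). Mesenchymal markers summed to 7815 to 9950 and 7107 to 9710 CPM, with a median of -0.17. Of the 17, 4 were lower and 0 higher, beside 4.76% and 6.72% over all genes. By an unadjusted p under 0.05, 9 were lower and 0 higher. Without embryo 6, 3 were lower, beside 399 of all 14579 genes tested, and without the pairing 3 were lower, beside 331 of 14504. With all embryos and the pairing, the 4 were the homeobox genes Dlx2 (-0.75, SE 0.08, adjusted p = 0.0002) and Dlx1 (-0.29, SE 0.07, adjusted p = 0.0258), the growth factor receptor gene Pdgfra (-0.53, SE 0.08, adjusted p = 0.00183) and the intermediate filament gene Vim (-0.42, SE 0.08, adjusted p = 0.00949). Of the other cell types, 1 of 6 endothelial markers tested was lower (Cdh5, -0.38, SE 0.09, adjusted p = 0.0188), 1 of 6 leukocyte markers was lower (Csf1r, -0.44, SE 0.11, adjusted p = 0.0234) and 1 of 2 nerve markers was higher (Tubb3, 0.70, SE 0.18, adjusted p = 0.0283), while 0 of 2 muscle and 0 of 4 bone and cartilage markers passed, also at an unadjusted p under 0.05 and with DESeq2 and limma-voom. These counts stand beside 4.76% lower and 6.72% higher over all genes. By an unadjusted p under 0.05, 3 endothelial and 2 leukocyte markers were lower, and 0 of either list were higher. The calls of Cdh5, Csf1r and Tubb3 were lost without the pairing. Cdh5 was also lost without embryo 2 or 4, and Tubb3 without embryo 1, 2, 4 or 6. Csf1r was also lost in DESeq2 and without embryo 3, 4 or 6. Of the mesenchymal calls, Dlx1 was lost in DESeq2 and without embryo 1, 2, 4 or 6, and Vim without the pairing. The part of these shifts in the FGF changes was not tested.

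Genes induced by low oxygen moved with treatment as well. All 13 tested of 14 listed were higher with IGF1, beside 6.72% of all genes tested, with a median log2 change of 1.69. With DESeq2 12 were higher, beside 785 of all 14504 genes tested, and without the pairing 12, beside 556. The list was chosen with earlier results of these data known, so these counts are descriptions only. Their summed level was 820 to 1302 CPM in the control and 1747 to 5907 CPM in the IGF1 teeth. The calls with the lowest adjusted p were the lactate dehydrogenase gene Ldha (1.54, SE 0.20, adjusted p = 0.000775), the hexokinase gene Hk2 (1.92, SE 0.26, adjusted p = 0.00108), the mitophagy gene Bnip3 (2.20, SE 0.33, adjusted p = 0.00193) and the collagen prolyl hydroxylase gene P4ha1 (1.197, SE 0.19, adjusted p = 0.00243). The median within embryos was 0.62, 2.8, 2.57, 0.99 and 1.14 in embryos 1, 2, 3, 4 and 6. Embryos 2 and 3 thus had the largest hypoxia medians. Of the ligands tested, Fgf3 and Fgf20 had their lowest log2 changes in the same embryos, whereas the lowest changes were in embryos 2 and 1 for Fgf4, 2 and 6 for Fgf9, 4 and 6 for Fgf10, 4 and 2 for Fgf7, and 3 and 6 for Fgf18. Red cell markers were lower for 5 of the 6 tested, beside 4.76% of all genes tested. Their summed level was 849 to 1422 CPM in the control and 604 to 1109 CPM in the IGF1 teeth. Without the pairing, 1 of 6 was lower, beside 331 of all 14504 genes tested. The globin gene Hbb-y, called in each alternative, fell by 0.63 (SE 0.08, adjusted p = 0.000886), and Hba-a1, Hbb-bs and Hbb-bt fell by 0.56 (SE 0.10, adjusted p = 0.00678), 0.46 (SE 0.09, adjusted p = 0.00736) and 0.52 (SE 0.10, adjusted p = 0.00755). Reads of these near-identical globin genes could be divided between them by estimate. Whether either list bears on the FGF ligands was not tested.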

How the data were processed

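RNA was sequenced from 10 single molars, and embryo and treatment were read from the sample titles. The authors deposited estimated counts per gene, without normalization. The submitters' processing notes name FastQC 0.11.8, Trimmomatic 0.39, Salmon 0.99.0, DESeq2 and GRCm38. The transcript set and strand setting are not given in the sources used here, and salmon divides reads shared by overlapping or similar genes by estimate. The deposited values were whole numbers with 0 exceptions and at least 10 summed counts per gene, and 18287 identifiers were in GENCODE M21 while 94 were not.

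The 9 ligands and all lists were chosen with earlier results of these data known. Genes were named by rule: all 9 ligands, Fgfr1 and Fgfr2, up to 4 called genes per other list by adjusted p, called protein coding neighbours within 500 kb, and the 3 most alike genes of ligands with at least 50 mean counts. Spry4, Etv1, Etv4 and Etv5 were added after their values were seen. Fits used R 4.3.3 and edgeR 4.0.16 (TMM, filterByExpr, quasi-likelihood test, embryo as block, Benjamini-Hochberg over 14504 genes, threshold 0.05). Log2 CPM within embryos used a prior count of 2. The labels take both teeth from 1 embryo, and deviations of same-embryo teeth correlated at -0.04 to 0.32 (median between embryos -0.05). On simulated counts (3 simulations, 14504 genes, 200 changed by 1 on the log2 scale), 82.3% were recovered and 6.81% of calls were unchanged genes. The simulated counts held no embryo effect, and the changed genes were drawn at random from all levels. The recovered share therefore does not give the power for ligands with few counts. Alternatives were DESeq2 size factors, DESeq2 1.42.0, limma-voom (limma 3.58.1), no filter, at least 1 CPM in 5 samples, no replicate block, and each embryo left out.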

Additional observations from a re-analysis of the deposited data

Results flagged for a closer look

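In 8 of 80 groups of 5 teeth examined for the named genes, the highest or lowest tooth was far from the other 4 (its gap to the nearest tooth over the whole range above 0.71), and chance alone gives about 1 in 20 groups, or 4. For the ligands it was 4 of 18 groups, where 1 in 20 would be 0.9. These chance figures take the groups as independent and normally distributed. The genes were measured in the same teeth, and Fgf8 and Fgf15 had very few counts. No excess over chance is therefore read from these figures. The IGF1 tooth of embryo 6 was the high tooth for Fgf3 (gap over range 0.842), Fgf4 (0.907), Fgf15 (0.87), Shh (0.731) and Dusp6 (0.775). The control tooth of embryo 1, the library with the fewest counts, was low for Fgf7 (0.736). The IGF1 tooth of embryo 3 was low for Fgfr1 (0.719), and the control tooth of embryo 2 was low for Spry2 (0.717).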

How the results depend on the processing

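Without the replicate block, the count of ligands that passed went from 1 to 0 (3 lower at an unadjusted p under 0.05), that of pathway genes from 13 to 8, and that of all genes from 1666 to 887. Without the block and without embryo 6, a fit added after seeing the data, the counts were 2, 8 and 495. Leaving out each embryo in turn gave 1 to 2 ligands, 9 to 12 pathway genes and 986 to 1602 genes overall. The second ligand was Fgf9 without embryo 3 and Fgf4 without embryo 6. Without embryo 4 the count of all genes was 986 and without embryo 6 it was 994. Size factors, tool and filter left the ligand count at 1. Fgf3 passed in 11 of 12 alternatives, with log2 changes of -2.08 to -1.18. The 12 alternatives and the ranges of adjusted p include the fit added after seeing the data. Adjusted p ranged from 0.0274 to 0.703 for Fgf4, 0.0407 to 0.442 for Fgf9, 0.0974 to 0.295 for Fgf10 and 0.116 to 0.392 for Fgf20, which the filter dropped without embryo 4 or 6 and to which DESeq2 gave no adjusted p. The direction turned for Fgf18 without embryo 3 (-0.23 to 0.13 over the embryos left out) and for Fgf7 without embryo 4 (-0.17 to 0.028), and the cause was not tested. Over 43 named genes, 412 of 513 values kept direction and side of the threshold, 96 lost and 3 gained their call, and 2 turned. Counts under about 10 per library limit Fgf8, Fgf15 and Fgf20.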

Other observations

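The genes of this paragraph were chosen after their values were seen. Fgf16 and Fgf17, FGFs of the wider family that were too low to test, held 49 and 25 counts over the 10 libraries. Fgf21, an FGF that acts as a hormone, held 26 counts in all, of which 12 were in the IGF1 tooth of embryo 2 and 6 in that of embryo 3. Of the receptor genes, Fgfr4 and the co-receptor genes Kl and Klb held 63, 50 and 14 counts in all. Fgf2, a heparin-binding FGF that lacks a signal peptide, had the highest mean CPM of the FGF genes. It stood at 44.3 ± 12.4 in the control and 51.2 ± 7.42 in the IGF1 teeth (SD, n = 5, log2 change 0.23, SE 0.10, adjusted p = 0.197 by edgeR). Its CPM was not scaled by length, so Fgf2 is not ranked with the ligands per kb.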
